A study of Mus musculus with 6 samples.

Results

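The 6 arrays of a mouse spleen study were divided by the signal of Cpa1, the gene of the pancreatic enzyme carboxypeptidase A1, and compared here as 4 arrays with and 2 arrays without pancreatic acinar signal. The arrays were chosen by the deposited intensity of the 1 Cpa1 probe, above 1000 for an array with acinar signal and below 100 for an array without it. The ICR mice were 28 days old and had received a single subcutaneous injection in 200 µL of saline, with spleen RNA taken 24 hours later. The cadmium groups received CdCl2 at 10 or 5 µmol/kg and the control group saline alone, with 2 Illumina bead arrays per group. The arrays with acinar signal were saline array 2, both 5 µmol/kg arrays and 10 µmol/kg array 2, and those without it were 10 µmol/kg array 1 and saline array 1. The labels do not say whether an array holds RNA of 1 mouse or of several, so the spread between arrays may be technical.

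Acinar cells make up most of the exocrine pancreas, which lies against the spleen. They synthesise digestive enzymes, mostly as inactive zymogens, in an extensive rough endoplasmic reticulum and store them in zymogen granules. Islet cells secrete hormones such as insulin, and the spleen itself holds lymphocytes, macrophages, red cell precursors and, in mice, megakaryocytes.

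Cpa1 had intensities of 8452 on saline array 2, 6440 and 3555 on the 5 µmol/kg arrays and 5280 on 10 µmol/kg array 2, against 1.41 on 10 µmol/kg array 1 and 3.08 on saline array 1, where it was not detected. No array lay near either limit: the nearest value inside was 3555 and the nearest outside 3.08. Because Cpa1 chose the arrays, the differences between the sets of arrays are given as descriptions without a test. Among the spleen's own markers, the T cell gene Cd3e lay at 9.30, 9.14, 9.32 and 9.39 on the log2 scale on the arrays with acinar signal and at 9.07 and 9.43 on those without it. Of the 18 measured genes of the T cell list 5 lay lower on all 4 arrays with acinar signal than on both arrays without it (27.8%, beside 18.9% of all units). Cd3d alone lay higher (beside 17.7%), at 9.63, 9.64, 10.08 and 9.85 against 9.39 and 9.59. The list had no common direction: the median of array 2 minus array 1 was 0.20 at 10 µmol/kg and -0.30 in saline. In the mean of both differences 9 of the 18 genes lay above 0. Cd8b1, a CD8 coreceptor gene and the brightest of the list, lay at 9.59, 9.46, 9.45 and 9.64 with acinar signal and at 10.15 and 10.25 without it. Cd4, the gene of the CD4 coreceptor, lay at 5.18, 5.03, 5.49 and 5.73 against 6.30 and 6.52. Spic, a transcription factor of red pulp macrophages, lay between 8.13 and 9.03 with acinar signal and at 8.94 and 8.40 without it. Cd3e and Spic were detected on all 6 arrays. In bulk RNA fewer cells of a type and less RNA per cell cannot be told apart.

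Genes were compared on normalized log2 signals over 13559 units, 10823 named genes and 2736 probes with no gene name, each detected (detection p under 0.05) on at least 2 arrays. The number of detected probes was 16265 to 16901 on the arrays with acinar signal, and 16542 and 18561 on 10 µmol/kg array 1 and saline array 1. Correlation across genes was 0.964 to 0.988 between arrays with acinar signal, 0.980 between the arrays without it and 0.898 to 0.943 between an array of each set. Outside the pancreas lists the values were 0.964 to 0.988, 0.980 and 0.914 to 0.960, so the last range still lay below the others, by little at its upper end. Units outside the lists still include genes known from the pancreas. These ranges therefore do not show how far genes that are not pancreatic differed. These are descriptions across genes, which are not independent replicates.

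Acinar enzyme genes separated the arrays by far. All 24 measured genes of the 2 enzyme lists, of 34 listed, lay higher on all 4 arrays with acinar signal, each by a gap of at least 1 (the gap is the log2 distance between the nearest arrays of the sets). Over all units, 17.7% lay higher without overlap and 0.472% with a gap of at least 1. Cpa1, which chose the arrays, is among the 24, and 11 of the 24 were detected on an array without acinar signal. The others passed the detection filter only through the arrays with acinar signal. Their separation was therefore partly fixed by the choice of arrays and the filter, and the count is a description. The enzyme genes' median difference of array 2 minus array 1 was 7.65 in the 10 µmol/kg pair and 8.02 in the saline pair, beside 0.02 and 0.04 over all units. Each pair holds dose constant and the pairs share no array, whereas the 5 µmol/kg group has no array without acinar signal. In both pairs the array with acinar signal is array 2, so acinar signal and array number cannot be told apart in them.

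**Figure D1:**
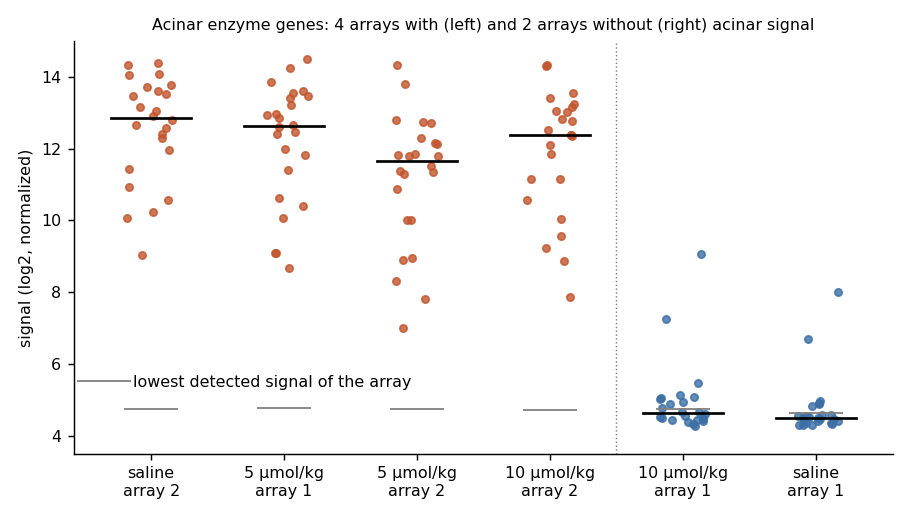
Normalized log2 signal (y axis) of the 24 measured acinar enzyme genes on each array (x axis), with the array's median as a black bar and its lowest detected signal as a grey bar. All 24 genes lie higher on the 4 arrays with acinar signal (left) than on the 2 without (right).

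The elastase gene Cela2a had the largest gap, 8.34, with 14.34, 14.51, 13.81 and 14.29 on saline array 2, the 5 µmol/kg arrays and 10 µmol/kg array 2, against 5.47 on 10 µmol/kg array 1 and 4.92 on saline array 1. The trypsinogen gene Try4 lay at 14.08, 13.86, 12.74 and 13.54 with acinar signal and at 4.66 and 4.34 without it, where it was not detected, at least 467-fold higher. Cpa1 was at least 220-fold higher on the same footing. Clps, the gene of the lipase cofactor colipase, lay at 13.76, 13.22, 12.79 and 13.24 against 4.89 and 4.51. Amy2a5, a pancreatic amylase gene, stood at 14.39, 14.24, 14.34 and 14.33 against 7.25 and 6.69, close to the highest log2 value of 14.7 on every array. Cela1, an elastase gene, lay at 14.06, 13.47, 12.73 and 13.40 against 9.08 and 8.00, and both Cela1 and Amy2a5 were detected on the arrays without acinar signal. "Without acinar signal" thus describes Cpa1 and not the absence of every acinar transcript.

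Among the 4 arrays with acinar signal the level of the enzymes varied. The mean log2 signal of the 24 genes was 12.54 on saline array 2, 12.16 and 11.16 on the 5 µmol/kg arrays and 11.90 on 10 µmol/kg array 2. Saline array 2 was the highest for 19 genes and 5 µmol/kg array 1 for 5, and 5 µmol/kg array 2 was the lowest for 23. The 2 arrays of the same 5 µmol/kg dose therefore differed more than saline array 2 and 10 µmol/kg array 2 did.

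Other products of the pancreas were less uniform. In the list of zymogen granule and other acinar secretory genes 19 of 23 measured genes lay higher without overlap, 11 of them by a gap of at least 1, and none lower. Over all units 17.7% lay higher without overlap and 0.472% by a gap of at least 1. Of the 23 genes 14 were detected on an array without acinar signal. The others, here and in the lists below, passed the detection filter only through the arrays with acinar signal. Their separation was therefore partly fixed by the filter, and the counts are descriptions. Zg16, a zymogen granule protein gene, lay at 14.12, 13.27, 12.67 and 13.16 against 5.64 and 4.93, and Reg1, a regenerating protein gene of acinar cells, at 13.27, 12.53, 12.20 and 12.65 against 4.88 and 4.63. Dmbt1, which is also in the intestine list, lay at 11.59, 11.31, 10.90 and 11.63 against 4.32 and 4.33, where it was not detected. Of 6 measured acinar transcription factor genes 5 lay higher without overlap and none by a gap of 1. Only 3 of the 6 were detected on an array without acinar signal. Ptf1a, a factor that acinar fate needs, had 7.04, 5.97, 5.00 and 5.75 against 4.29 and 4.27, where it was not detected. Of 7 measured islet genes 2 lay higher without overlap (28.6%, beside 17.7% of all units). Ins2, the gene of insulin, had 8.68, 6.39, 5.96 and 5.52 against 4.33 and 4.45, at least 3.85-fold higher, and was highest on saline array 2. In the duct list 4 of 11 genes lay higher (36.4%, beside the same 17.7%) and 1, Bicc1, lower (9.09%, beside 18.9% of all units).

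Promoters of the acinar genes were searched because these genes move together. Of 53 measured acinar genes, 41 had an entry in RefSeq's promoter table (build GRCm38.p6, 250 bases before to 50 after the start). PTF1, the complex that contains Ptf1a, is known to bind an E-box next to a TTTCCC-like box. In all, 17 letter forms were tried on these promoters, read on both strands, and 2 were kept afterwards, so their counts are a choice made on these promoters and support nothing. The forms that pair the E-box CACCTG with a second box TTTCCC, or the general E-box CANNTG with a second box TTTCC, at a spacing of 5 or 6 bases were in 0 of the 41 genes. No shorter spacing was tried, so the 0 does not mean that such pairs are absent. The 2 kept forms pair the general E-box CANNTG with a second box TTCCC at those spacings and were in 5 of 41 genes (12.2%), against 0.851% of 27025 genes with an entry. In the Cela1 and Ctrb1 sequences below a t precedes TTCCC, so the same sites also hold TTTCCC at a spacing 1 base shorter. Of the single boxes, CACCTG was in 25 of 41 genes (61.0%) against 22.6% of all, TGGGAA in 26 (63.4%) against 28.3%, GATAAG in 12 (29.3%) against 8.58%, TATAAA in 15 (36.6%) against 15.7%, TTTCCC in 14 (34.1%) against 27.9% and the general E-box CANNTG in 37 (90.2%) against 74.99%. The E-box CAGCTG was in 11 (26.8%) against 18.3% and the E-box CATCTG in 10 (24.4%) against 19.2%. These E-boxes and the first are all forms of the general one. The 2 forms ending in AAGGTCA, preceded by 1 or 2 cytosines, were in 2 and 1 of the 41 genes, and the E-box CACCTG together with TTTCCC anywhere in the window in 6 (14.6%) against 5.65%. Matches are descriptions of letters. The 250 bases before the start are shown for a pair of genes with a kept form and for Cpa1, which has none, with the 2 boxes of the kept form in capitals. They are Cela1 (chr15:100687921-100688170, minus strand), Ctrb1 (chr8:111691011-111691260, minus strand) and Cpa1 (chr6:30638968-30639217, plus strand).
Cela1: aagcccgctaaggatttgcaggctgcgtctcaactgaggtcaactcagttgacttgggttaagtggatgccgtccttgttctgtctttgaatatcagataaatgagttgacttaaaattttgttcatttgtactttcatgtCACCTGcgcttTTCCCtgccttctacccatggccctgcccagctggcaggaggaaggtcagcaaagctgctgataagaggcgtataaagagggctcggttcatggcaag
Ctrb1: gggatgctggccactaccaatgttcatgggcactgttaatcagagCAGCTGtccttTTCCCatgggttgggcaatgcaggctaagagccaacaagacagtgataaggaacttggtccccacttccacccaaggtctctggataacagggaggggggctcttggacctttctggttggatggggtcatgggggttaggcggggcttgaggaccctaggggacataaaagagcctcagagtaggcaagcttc
Cpa1: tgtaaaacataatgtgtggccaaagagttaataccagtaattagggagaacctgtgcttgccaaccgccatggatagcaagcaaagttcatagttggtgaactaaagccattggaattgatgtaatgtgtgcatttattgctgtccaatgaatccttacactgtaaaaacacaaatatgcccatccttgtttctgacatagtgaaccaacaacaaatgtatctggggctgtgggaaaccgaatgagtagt

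Units outside the pancreas lists also separated the arrays, and more of them lay lower than higher. The lists do not hold every gene known from the pancreas. With a gap of at least 1, 64 units lay higher with acinar signal (0.472% of all units), of which 36 are in a pancreas list and 28 are not. Of the 64 units 32 were detected on neither array without acinar signal. These 32 passed the detection filter only through the arrays where they are high, so their separation was partly fixed by the filter. Lower were 296 units, none in a pancreas list, or 2.18% of all units. Any gap above 0 was met by 2404 units higher (17.7%) and 2562 lower (18.9%). An array left out is 1 array fewer to clear, and leaving out saline array 2 raised the counts with a gap of at least 1 to 126 higher and 506 lower, and leaving out 10 µmol/kg array 1 to 168 and 561. Of the 296 lower units 169, or 57.1%, were probes with no gene name, against 20.3% of the 64 higher units and 20.2% of all units. On all 6 arrays 174 of the 296 were detected. Another 42 were detected on no array with acinar signal and passed the filter only through the arrays without it. With an offset of 50 in the background correction, which damps low signals, 146 units lay lower, and with every probe as its own unit 474.

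**Figure D2:**
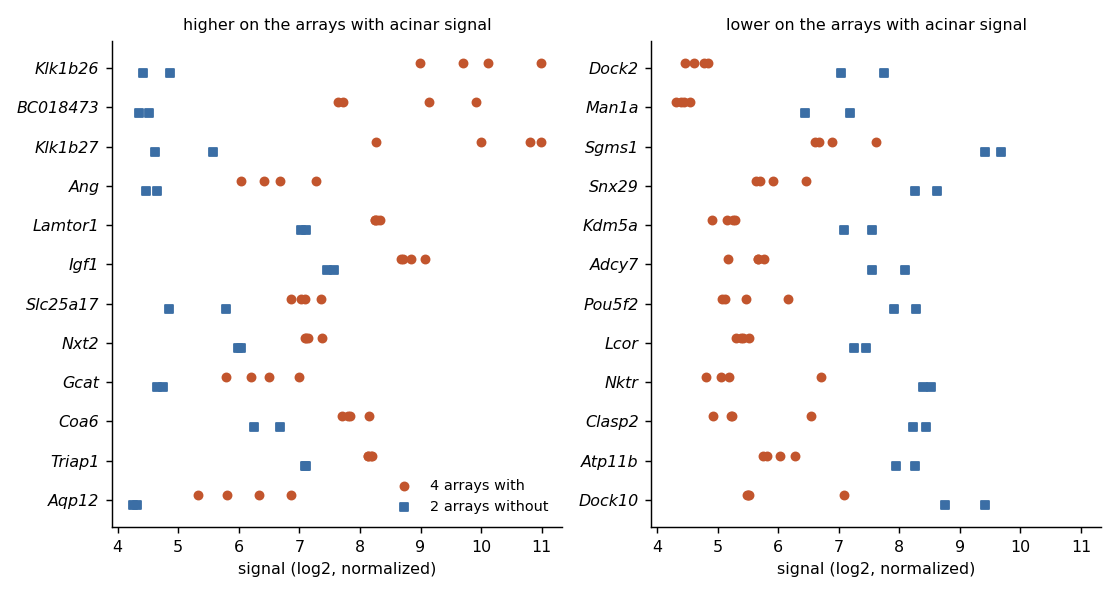
Normalized log2 signal (x axis) of the 12 named genes outside the pancreas lists with the largest gap in each direction (y axis), with 4 arrays with acinar signal as circles and 2 arrays without as squares. The sets do not overlap for any of them, by the choice of genes.

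Of the higher genes outside the pancreas lists, leaving aside predicted genes, Klk1b26 had the widest gap, followed by BC018473 and Klk1b27. Klk1b26 and Klk1b27 are tissue kallikreins, serine proteases. Klk1b26 had 10.99, 10.11, 8.998 and 9.70 on saline array 2, the 5 µmol/kg arrays and 10 µmol/kg array 2, against 4.86 and 4.43 on 10 µmol/kg array 1 and saline array 1. Klk1b27 had 10.80, 10.99, 8.26 and 9.99 against 5.58 and 4.62. BC018473 had 9.13, 9.92, 7.72 and 7.64 against 4.35 and 4.52, at least 15.1-fold higher. Gm5409, a predicted gene passed over by the rule and listed in RefSeq as a pseudogene with the synonym Try10l, had a wider gap than these and reached 13.96, 13.63, 12.47 and 13.33 against 4.67 and 4.54. The 13 unnamed probes had gaps of 1.06 to 7.87. Klk1b26 was highest on saline array 2, and Klk1b27 and BC018473 on 5 µmol/kg array 1. Ang, an angiogenin ribonuclease gene, had 7.28, 6.68, 6.42 and 6.03 against 4.65 and 4.47, at least 3.77-fold higher. Aqp12, an aquaporin gene known from acinar cells, had 6.86, 6.33, 5.33 and 5.80 against 4.32 and 4.25, at least 2.63-fold higher.

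A second kind of higher gene was nearly level among the 4 arrays with acinar signal, whatever their enzyme level. Lamtor1, a subunit of the lysosomal Ragulator complex, had 8.24, 8.28, 8.25 and 8.33 against 7.10 and 7.03. Triap1, a mitochondrial lipid transfer protein gene, had 8.14, 8.19, 8.13 and 8.17 against 7.11 and 7.10. Igf1, the gene of insulin-like growth factor 1, had 8.68, 8.84, 8.70 and 9.07 against 7.57 and 7.46. Nxt2, an RNA export factor gene, and Coa6, a cytochrome c oxidase assembly gene, were alike, with 7.09 to 7.37 and 7.71 to 8.15 against at most 6.04 and 6.67. In these 5 genes the 4 arrays with acinar signal lay closer to each other than to either array without it.

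The lower genes included Dock2, an exchange factor of the Rac GTPase in leukocytes, with 4.85, 4.47, 4.61 and 4.78 on the arrays with acinar signal against 7.04 and 7.75 on 10 µmol/kg array 1 and saline array 1. Dock10 had 7.09, 5.48, 5.51 and 5.52 against 8.75 and 9.42. Nktr, a cyclophilin-related gene, had 6.72, 5.19, 5.06 and 4.82 against 8.40 and 8.53. In Dock10 and Nktr saline array 2 lay between the other arrays with acinar signal and those without it. Sgms1, a sphingomyelin synthase gene, had 7.61, 6.68, 6.89 and 6.61 against 9.42 and 9.68. Adcy7, an adenylyl cyclase gene, had 5.77, 5.67, 5.67 and 5.17 against 7.55 and 8.10. Man1a, a mannosidase gene, was not detected on the 4 arrays with acinar signal and lay at 6.45 and 7.19 without it, at least 4.20-fold lower with acinar signal.

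These lower values belong to single probes. Of the 127 named genes among the 296 lower units 76 had another measured probe, 109 probes in all, of which 77 lay lower too, 53 without overlap and 9 by a gap of at least 1, with a median difference of -0.33. That is 48.6% without overlap and 8.26% by a gap of at least 1, beside 19.9% and 3.30% lower over the 5401 other probes of all genes, whose median was 0.04. The higher genes had 11 other probes of 9 genes, all 11 higher and 9 without overlap, beside 885 of the 5401. For Man1a and Kdm5a, a histone demethylase gene, the other probe lay the opposite way, so the within-dose difference was 0.448 for Man1a and 0.0918 for Kdm5a with the probe of lowest detection p in place of the brightest. For Lcor and Atp11b the other probe also did not share the sign.

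The lower named genes were long on the genome. Outside the pancreas lists the median span was 45983 bases for 126 genes lower by a gap of at least 1 and 5717 bases for 15 higher ones, against 21459 bases over 10742 genes. Without overlap at any gap it was 28744 bases for lower and 16287 for higher genes. Of 10 bins by span, the longest had 22.0% of genes lower and 13.2% higher, and the shortest 6.79% lower and 24.0% higher. Over all units 18.9% lay lower and 17.7% higher. The lower share was 23.6% in bin 9 and 16.4% to 19.5% in bins 4 to 8. It thus lay near the share over all units in most bins and furthest from it in the shortest. The median signal differed between bins, 5.91 in the longest and 6.45 in the shortest, and its part in the pattern was not tested.

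**Figure D3:**
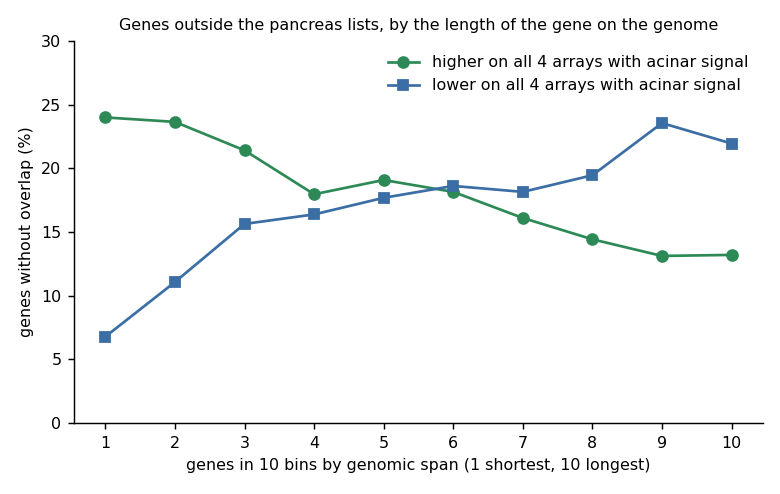
Share of genes outside the pancreas lists (y axis, percent) that lay higher or lower on all 4 arrays with acinar signal, in 10 bins of genomic span (x axis, 1 shortest). The lower share is 22.0% in the longest bin and 6.79% in the shortest, and the higher share 13.2% and 24.0%. Over all units 18.9% lay lower and 17.7% higher.

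Families were also grouped by gene name. These 9 families were picked from 34 name prefixes after their values had been seen, so their counts are descriptions of selected groups. Beside each count stand 17.7% higher and 18.9% lower without overlap over all units. Of 73 measured mitochondrial ribosomal protein genes 49 lay higher without overlap and 1 lower, with medians of 0.32 in the 10 µmol/kg pair and 0.51 in the saline pair. Mrps22 led them, with 7.73, 8.38, 7.92 and 7.95 against 6.85 and 6.97. Of 13 mitochondrial import genes 7 lay higher, and Timm8b had 10.00, 10.22, 9.93 and 10.00 against 9.04 and 8.96. Of 9 DOCK genes 6 lay lower, 4 by a gap of at least 1. All 5 KMT2 histone methyltransferase genes, 5 of 8 CHD remodeller genes, 3 of 4 CLK kinase genes, 2 of 3 LUC7-like genes and 4 of 9 SR splicing factor genes lay lower, and 5 of 8 tissue kallikreins higher. Luc7l3 had 10.46, 10.27, 10.32 and 10.00 against 12.04 and 12.14, and its 2 other probes were lower without overlap too. Prefixes that were looked at and not kept went either way. Of 10 Commd genes 6 lay higher and 1 lower, of 41 Psm genes 13 higher and 1 lower, and of 38 Ank genes 2 higher and 14 lower. Of 194 Zfp genes 24 lay higher and 35 lower, and of 27 Kif genes 4 and 4.

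Among the gene lists, oxidative phosphorylation had 40 of 64 measured genes higher without overlap (62.5%) and 2 lower. Beside this and the counts below stand 17.7% higher and 18.9% lower over all units. Its median was 0.24 in the 10 µmol/kg pair and 0.43 in the saline pair. Atp5e, a small subunit of ATP synthase, had 6.05, 5.83, 5.83 and 5.68 against 4.75 and 4.86, while Atp5b, its catalytic subunit, lay lower, with 12.36, 12.30, 12.88 and 12.30 against 13.20 and 13.02. Protein folding and secretion in the endoplasmic reticulum had 16 of 40 higher and 3 lower, with medians of 0.51 and 0.10. Ddost, a subunit of the oligosaccharyltransferase, had 8.37, 7.41, 7.60 and 7.95 against 6.77 and 6.67. Of 12 genes of amino acid and creatine metabolism 5 lay higher and 2 lower, led by Gamt, a creatine synthesis gene, with 6.66, 6.27, 6.08 and 6.23 against 5.14 and 5.11. Of 16 metal binding and transport genes 7 lay higher, among them the zinc transporter gene Slc39a5, which is also in a pancreas list. Mt1, the gene of a metallothionein, a protein that binds cadmium and zinc, overlapped, with 13.17, 12.23, 12.36 and 12.06 against 12.28 and 11.48.

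Lists of spleen and neighbouring cells moved in both directions, and the lists of neighbouring cells that lay higher were short. Over all units 17.7% lay higher without overlap and 18.9% lower. In lists of 5 or 7 genes a count of 2 cannot be told from these shares. Of 5 mesothelium genes 2 lay higher, with medians of 0.13 in the 10 µmol/kg pair and 0.67 in the saline pair, led by the keratin gene Krt8 with 5.46, 5.49, 4.99 and 5.23 against 4.57 and 4.65. Of 7 smooth muscle genes 2 lay higher and 1 lower, with medians of 0.29 and 0.63, and of 5 liver genes 2 higher, with medians of 0.36 and 0.28. In the endothelium list 7 of 17 genes lay lower (41.2%, beside 18.9% of all units) and 1 higher, led by Vwf, the gene of von Willebrand factor, with 9.32, 9.46, 9.57 and 9.70 against 10.58 and 10.51. In the megakaryocyte and platelet list 5 of 19 lay lower (26.3%, beside the same 18.9%) and none higher, led by the integrin gene Itga2b with 8.71, 9.23, 9.47 and 9.41 against 10.62 and 10.79. The summed intensity of that list was 9861 to 15429 with acinar signal and 15664 to 16246 without it. In the macrophage and monocyte list none of 23 genes separated the arrays by its brightest probe. For Adgre1, a gene of that list, the 2 other probes both lay higher without overlap. Stomach and kidney or adrenal markers had only 2 measured genes each, none of which separated them, and 729 list members were measured in all, 34 of them in more than 1 list.

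**Figure D4:**
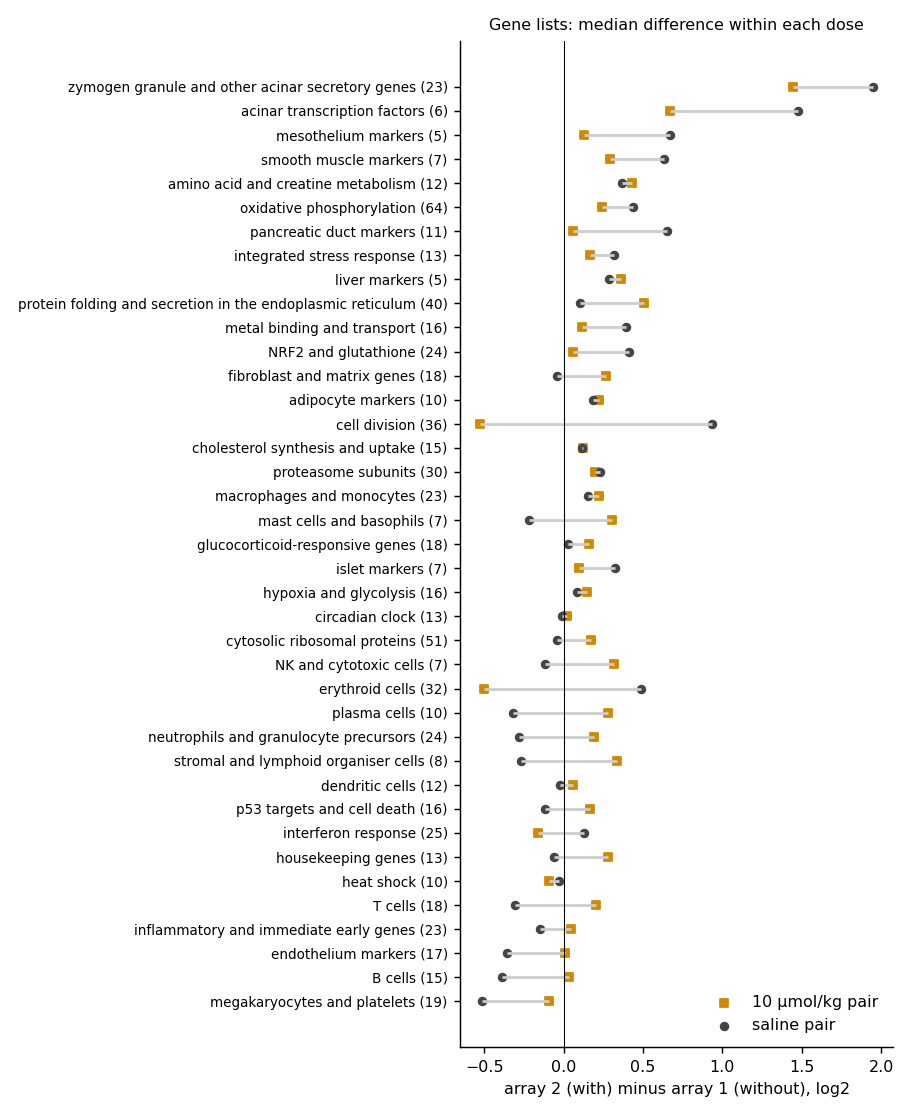
Median log2 difference (x axis) of array 2, with acinar signal, minus array 1, without it, for each list with at least 5 measured genes (y axis, number measured in parentheses), as squares for the 10 µmol/kg pair and circles for the saline pair. The acinar enzyme lists, with medians near 8, are not drawn, and cell division and erythroid cells lie on opposite sides of 0 in the pairs.

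Some lists went opposite ways in the pairs. The median of 36 cell division genes was -0.53 in the 10 µmol/kg pair and 0.93 in the saline pair, and that of 32 erythroid genes -0.50 and 0.48. Gins2, a DNA replication gene, had 7.14, 7.74, 6.83 and 6.34 with acinar signal against 5.75 and 5.27, so it did not overlap, whereas Cenpf, a kinetochore gene, did. Across all units the differences of the pairs correlated at 0.579, at 0.463 outside the pancreas lists and at 0.386 for those also detected on all 6 arrays, and 60.5% had the same sign. The median absolute difference between arrays was 0.35 at 10 µmol/kg and 0.36 in saline, and 0.23 between the 5 µmol/kg arrays, which both carry acinar signal.

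**Figure D5:**
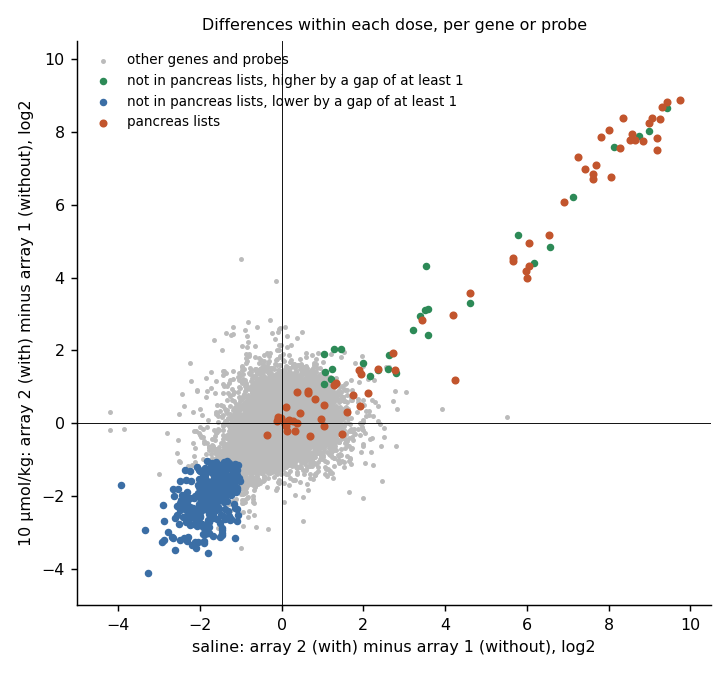
Difference of array 2 minus array 1 at 10 µmol/kg (y axis, log2) against the same in saline (x axis, log2), a point per gene or unnamed probe. Acinar enzyme genes run along the diagonal, up to 9.74 in saline and 8.89 at 10 µmol/kg for Try4, and the 296 lower units lie below 0 in both pairs, by their choice.

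The dose comparisons, which the labels name as the study's design, were fitted with limma over all units. No gene passed an adjusted p of 0.05 in any of the 3, and the smallest adjusted p from limma was 0.525, in the lower dose against saline. At an unadjusted p under 0.05, limma gave 1257 units, 9.27% of those tested, when the lower dose was set against saline. The higher dose against saline gave 221 units (1.63%), and the higher dose against the lower gave 130 (0.959%). Of the 296 lower units 27 (9.12%) were among those of the lower dose against saline, all 27 lower in cadmium, 0 among those of the higher dose against saline and 1 among those of the higher dose against the lower. Of the 64 higher units there was none in any of the 3. With acinar signal as a second factor in limma, again no gene passed an adjusted p of 0.05, and the smallest was 0.309. At an unadjusted p under 0.05 that fit gave 8.89% of all units for the lower dose against saline, 5.47% for the higher dose against saline and 1.48% for the higher dose against the lower. Among the 296 lower units it gave 91 (30.7%), 90 of them lower in cadmium, for the lower dose against saline, 99 (33.4%), all lower in cadmium, for the higher dose against saline, and 2 for the higher dose against the lower. Among the 64 higher units it gave 9 (14.1%), 2 and 2. The units were chosen by a gap that splits the saline and the 10 µmol/kg pairs, which is part of the spread in the first fit and is taken out of it in the second. These counts are descriptions, and neither a lack nor an excess of dose calls among the units can be read from them. The 5 µmol/kg arrays both carry acinar signal and 1 saline array does not, so dose and acinar signal are partly confounded there, and each group's arrays enter 2 of the 3 comparisons.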

How the data were processed

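Spleen RNA was measured on 6 Illumina bead arrays, 2 per group. The deposited values are bead intensities with a detection p-value per probe, as given by the authors. The sorted intensities of the arrays differed by at most 0.243, so their distributions were nearly the same as deposited, and the lowest was -20.15. The series' value table held the same intensities for 45279 of 45279 probes within 0.001. Intensities were background-corrected with neqc (offset 16), quantile normalized and put on the log2 scale with limma 3.58.1 in R 4.3.3. Of 45281 probes, 34885 had 1 gene symbol, 18 several and 10378 none, and 34807 were found in RefSeq. The 18960 probes with detection p under 0.05 on at least 2 arrays were kept, the brightest standing for its gene.

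The arrays were split by Cpa1, so that contrast has no test. Dose comparisons used limma with Benjamini-Hochberg adjustment over all 13559 units, with p-values that measure the spread between 2 arrays per group. Named genes were those with the largest gap per list and direction, passing over predicted genes, plus the markers Cpa1, Cela1, Amy2a5 and Ins2. The arrays, the 47 gene lists and the rule were chosen with earlier results of these data known; the 9 families, 34 name prefixes and 17 promoter forms were tried after values were seen. The fits were tested on simulated data. The deviations of same-numbered arrays correlated at 0.579 for saline with 10 µmol/kg, where array 2 carries acinar signal and array 1 does not. They correlated at -0.276 for saline with 5 µmol/kg and at -0.109 for 5 with 10 µmol/kg. Array number therefore did not pair the 5 µmol/kg group with the others. The small number of arrays limits the precision. Other settings, with each array left out, are in the closing section.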

Additional observations from a re-analysis of the deposited data

Results flagged for a closer look

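In 3 gene lists the difference of 10 µmol/kg minus saline had opposite signs on the arrays with and without acinar signal. Each rests on 1 array against 1, so the difference was not tested, and the limit of 0.3 on both sides was set after the medians had been seen. The median of the acinar lipases, amylases and nucleases was -0.807 on the arrays with acinar signal and 0.306 on those without it. Of its 7 measured genes 2 were detected on saline array 1 and 3 on 10 µmol/kg array 1. The 0.306 therefore compares mostly signals that were not detected. The median of the erythroid genes was -0.452 with acinar signal and 0.822 without it. The median of the cell division genes was -0.633 with acinar signal and 0.736 without it. Across all units the same contrast correlated at -0.112 between the sets, with 47.8% of units of the same sign.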

How the results depend on the processing

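With limma, no gene was called in the dose comparisons under any alternative, except 1 for 10 against 5 µmol/kg with every probe as its own unit. The replicate block, alone or with the 5 µmol/kg numbers exchanged (added after seeing the data), called 0 in each comparison. The 64 higher units became 21 with detection on all 6 arrays and 2404 at any gap above 0, and 65 to 168 with an array left out. The 296 lower units became 174 with detection on all 6 arrays, 146 with an offset of 50, 474 with every probe, 2562 at any gap and 16 at a gap of at least 2, and 301 to 561 with an array left out. Man1a and Kdm5a turned sign with the probe of lowest detection p (0.448 and 0.0918). Of the other medians, 620 list values and 1991 gene values moved by less than the spread between the pairs, and 109 list values and 130 gene values moved by more. With an offset of 50, the list median was 6.63 for acinar proteases, 6.95 for acinar lipases, 1.27 for zymogen granule genes, 0.181 for adipocyte markers, 0.137 for liver markers, 0.0401 for circadian clock, 0.108 for cholesterol synthesis and uptake, 0.297 for amino acid and creatine metabolism. With the deposited intensities with a floor at 16, the list median was 8.41 for acinar proteases, 8.52 for acinar lipases, 0 for liver markers, 0.0386 for circadian clock, 0.179 for hypoxia and glycolysis, 0.0657 for cholesterol synthesis and uptake. With the probe of lowest detection p, the list median was 7.16 for acinar proteases, 0.0877 for cholesterol synthesis and uptake. With no filter, the list median was 7.16 for acinar proteases, 0.949 for zymogen granule genes, 0.197 for adipocyte markers, 0.135 for mesothelium markers, 0.115 for liver markers, 0.106 for macrophages and monocytes, 0.16 for proteasome subunits, 0.00496 for circadian clock, 0.0315 for hypoxia and glycolysis, 0.187 for cholesterol synthesis and uptake, 0.33 for amino acid and creatine metabolism. With detection on all 6 arrays, the list median was 6.32 for acinar proteases, 7.39 for acinar lipases, 2.73 for zymogen granule genes, 0.409 for islet markers, 0.29 for adipocyte markers, -0.495 for liver markers (sign turned), -0.0213 for fibroblast and matrix genes (sign turned), -0.462 for endothelium markers, -0.162 for dendritic cells, 0.0213 for circadian clock, 0.233 for hypoxia and glycolysis, 0.134 for cholesterol synthesis and uptake. With every probe as its own unit, the list median was 7.16 for acinar proteases, 0.102 for liver markers, 0.14 for heat shock, 0.00496 for circadian clock, 0.0877 for cholesterol synthesis and uptake. With the 10 µmol/kg pair alone, the list median was 7.56 for acinar proteases, 0.128 for mesothelium markers, 0.242 for oxidative phosphorylation, 0.166 for integrated stress response, -0.0927 for heat shock, 0.021 for circadian clock, 0.144 for hypoxia and glycolysis, 0.124 for cholesterol synthesis and uptake, 0.278 for housekeeping genes. With detection p under 0.01, the list median was 2.12 for zymogen granule genes, 0.762 for islet markers, 0.29 for adipocyte markers, -0.162 for dendritic cells. With the saline pair alone, the list median was 0.326 for islet markers, 0.188 for adipocyte markers, -0.0398 for fibroblast and matrix genes (sign turned), -0.515 for megakaryocytes and platelets, 0.226 for proteasome subunits, 0.0258 for glucocorticoid-responsive genes, -0.00863 for circadian clock (sign turned), 0.115 for cholesterol synthesis and uptake. With cyclic loess, the list median was 0.194 for adipocyte markers, -0.0573 for dendritic cells, 0.136 for macrophages and monocytes, 0.143 for proteasome subunits, -0.101 for heat shock, 0.0313 for hypoxia and glycolysis, 0.112 for cholesterol synthesis and uptake, 0.321 for amino acid and creatine metabolism. With the mean of 4 arrays minus that of 2, the list median was 0.0978 for adipocyte markers, 0.253 for liver markers, -0.0639 for dendritic cells, 0.134 for macrophages and monocytes, 0.264 for proteasome subunits, 0.12 for integrated stress response, -0.154 for heat shock, -0.0625 for circadian clock (sign turned), 0.0468 for hypoxia and glycolysis, 0.321 for cholesterol synthesis and uptake. With no normalization between arrays, the list median was 0.185 for cholesterol synthesis and uptake. With an array left out, list medians ranged from 7.56 to 8.00 for acinar proteases, from 0.188 to 0.235 for adipocyte markers, from 0.115 to 0.207 for cholesterol synthesis and uptake, from -0.00863 to 0.0903 for circadian clock, from -0.0398 to 0.266 for fibroblast and matrix genes, from 0.0258 to 0.162 for glucocorticoid-responsive genes, from -0.0927 to -0.0161 for heat shock, from -0.0626 to 0.278 for housekeeping genes, from 0.0832 to 0.144 for hypoxia and glycolysis, from 0.166 to 0.326 for integrated stress response, from 0.0952 to 0.326 for islet markers, from -0.515 to -0.0935 for megakaryocytes and platelets, from 0.128 to 0.669 for mesothelium markers, from 0.242 to 0.434 for oxidative phosphorylation, from 0.198 to 0.226 for proteasome subunits. The cause of these shifts was not tested. Signals near the lowest detected level of each array limit what low genes can show.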
